A study of Arabidopsis thaliana with 8 samples.

Results

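Salicylic acid (SA) pathway and pathogenesis-related (PR) genes were followed across 8 RNA libraries of *Arabidopsis thaliana* seedlings. The set holds 9 genes of the 33028 names in each count table, chosen by locus: *ICS1* (also *SID2*, and listed under its synonym *EDS16*) and *EDS5*, which make and export the precursor of SA; *NPR1*, a receptor of SA; *EDS1*, *PAD4* and *SAG101*, the lipase-like proteins of the EDS1 node; and *PR1*, *BGL2* (*PR2*) and *PR5*, the marker genes of the SA response. All 9 had a row in every table, and 8 of them passed the filter on low counts, which *PR1* did not.

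The libraries came from whole seedlings of the Col-0 ecotype, grown without treatment at 22 °C in 8 h of light and 16 h of dark, and labelled as 14 days after germination. There were 2 libraries each of *HRE1α* OX, *HRE1β* OX, *AtRH17* OX and WT, where OX means overexpressing. HRE1α and HRE1β are splicing variants of HRE1 (ERF73), a group VII ERF transcription factor known from the low-oxygen response, and AtRH17 is a gene named in the labels only. The *HRE1α* OX plants came from a line of an earlier study, the *HRE1β* OX plants were homozygous descendants of floral-dip transformants, and no source used here gives the number of lines behind the libraries or the promoter. The question was whether the SA pathway differed in the overexpressors. Whether the 2 libraries of a group came from separate cultures is not given, so p-values measure the spread between these libraries, which may be technical.

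SA is the plant hormone of resistance to biotrophic pathogens. Most of it is made in the chloroplast from chorismate by ICS1, exported by EDS5 and turned into SA by PBS3 and EPS1, while phenylalanine ammonia-lyases feed another route. EDS1 pairs with PAD4 or SAG101 and passes signals from immune receptors to SA synthesis and cell death. NPR1 binds SA and then, with TGA factors at the promoter, switches on *PR1*, whose transcript is close to absent in healthy young tissue and is the usual readout of the active pathway.

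Reads were 3′ tags, counted per gene by the authors, with 25657217 to 30606058 counts per library, and 3 counts corresponded to 0.098 to 0.117 CPM, which sets each count against the size of its library. CPM values below were scaled with TMM factors, and fold changes with standard errors (SE) come from edgeR's quasi-likelihood F test over all 22602 tested genes, with Benjamini-Hochberg adjusted p under 0.05 as the threshold. *HRE1* itself had 4424 and 5397 counts in *HRE1α* OX, 916 and 1057 counts in the libraries labelled as *HRE1β* OX, 1233 and 878 counts in *AtRH17* OX and 1401 and 1115 counts in WT. It was thus higher in *HRE1α* OX (log2 fold change 2.05, adjusted p = 2.06e-10, edgeR) and lower in the libraries labelled as *HRE1β* OX (log2 fold change -0.37, adjusted p = 0.0263, edgeR), against their label, a call lost without WT replicate 1 (adjusted p = 0.33) or either of the libraries so labelled (0.126 and 0.116). The study reported, by quantitative RT-PCR with primers specific to the variant, that *HRE1β* was upregulated in its *HRE1β* OX plants. Whether that RNA was also the RNA sequenced is not stated. The *HRE1β* construct was made from the open reading frame, and whether its 3′ tags are counted in this row was not tested. No source used here pairs the name AtRH17 with a locus. AT2G40700, entered from general knowledge as its locus, had 144 and 124 counts in *AtRH17* OX and 259 and 242 counts in WT. It was lower in *AtRH17* OX (log2 fold change -0.79, adjusted p = 0.00121, edgeR), also against the label if that pairing holds. Whether tags of the transgene are counted in this row was not tested. Transcripts of seed storage, oil body and late embryogenesis genes were present in the libraries labelled as *HRE1β* OX, with 2700 and 889 counts over 12 seed markers, against 13 to 28 counts in each of the other libraries. The 5 leaf markers summed to 20600 to 28200 CPM in the overexpressors and 16200 and 18700 CPM in WT, and the 6 root markers summed to 3790 and 4410 CPM in *AtRH17* OX and 1970 to 2330 CPM in the other libraries, most of it from *PYK10*. *TIP2;3*, a tonoplast aquaporin of the same root list, was higher in all 3 overexpressors (log2 fold changes 1.40 in *HRE1α* OX, 3.08 in the libraries labelled as *HRE1β* OX and 3.44 in *AtRH17* OX, adjusted p = 2.79e-10, 1.73e-18 and 1.13e-19, edgeR). In whole seedlings, fewer cells of a type and less RNA per cell cannot be told apart.

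Stretches upstream of 3 of the genes are shown, for *ICS1* and *SAG101* because they held the calls among the 9 genes and for *PR1* because it alone had a GCC box, the element known to be bound by ERF factors. The coordinates are those of TAIR10.1, the sequences are from RefSeq, and each runs 5′ to 3′ on the strand of its gene. Capitals mark the GCC box GCCGCC, the W-box core TTGAC of WRKY factors and the element TGACG of TGA factors, each searched on both strands, where TTGACG holds both of the last.

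PR1, chr2:6243042-6243191, minus strand, 650 to 501 bases before the annotated start: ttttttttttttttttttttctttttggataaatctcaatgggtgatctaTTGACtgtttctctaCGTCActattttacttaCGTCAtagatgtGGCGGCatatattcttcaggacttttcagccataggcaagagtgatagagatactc
ICS1, chr1:28069745-28069894, plus strand, 550 to 401 bases before the annotated start: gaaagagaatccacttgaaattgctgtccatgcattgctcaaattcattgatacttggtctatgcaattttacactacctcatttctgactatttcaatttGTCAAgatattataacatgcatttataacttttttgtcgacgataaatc
SAG101, chr5:4828299-4828448, plus strand, 200 to 51 bases before the annotated start: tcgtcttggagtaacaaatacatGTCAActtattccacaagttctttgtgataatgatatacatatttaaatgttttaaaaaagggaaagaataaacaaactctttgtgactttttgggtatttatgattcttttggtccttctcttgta

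The *PR1* stretch held the GCC box, on the reverse strand 556 bases before the start, within 12 bases of a TGACG element at 568 bases, with another TGACG at 585 bases and a W-box core at 600 bases. In the 1000 bases before the start, GCCGCC was found in 1 of the 9 genes and in 8.44% of 27443 protein-coding genes. TTGAC was found in 8 of the 9 genes, *NPR1* being the exception, and in 88.1% of all genes, and TGACG in 5 of the 9 and in 54.1% of all genes. These matches describe letters in the sequence and do not show binding.

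Few of the 9 genes were called in these seedlings. In *HRE1α* OX against WT, 0 of the 8 tested genes passed the threshold, where 3.36% of all tested genes did (1.57% higher and 1.8% lower). DESeq2 also called 0 in that comparison. An unadjusted p under 0.05 by edgeR was reached by 1 of the 8 genes in *HRE1α* OX, 4 in the libraries labelled as *HRE1β* OX and 2 in *AtRH17* OX. The share of all tested genes at that unadjusted threshold was not computed, so these 3 counts are not read as a result. In the libraries labelled as *HRE1β* OX, 1 of 8 genes was called higher and 0 lower against WT, beside 22.9% of all tested genes (11.2% higher and 11.6% lower). In *AtRH17* OX, 0 genes were called higher and 1 lower, beside 30.8% of all genes (15.3% higher and 15.5% lower). The median log2 fold change of the 8 genes was -0.06 in *HRE1α* OX, 0.07 in the libraries labelled as *HRE1β* OX and -0.14 in *AtRH17* OX, and that of all tested genes was -0.01, 0.00 and -0.01. The 3 comparisons share their WT libraries.

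**Figure D1:**
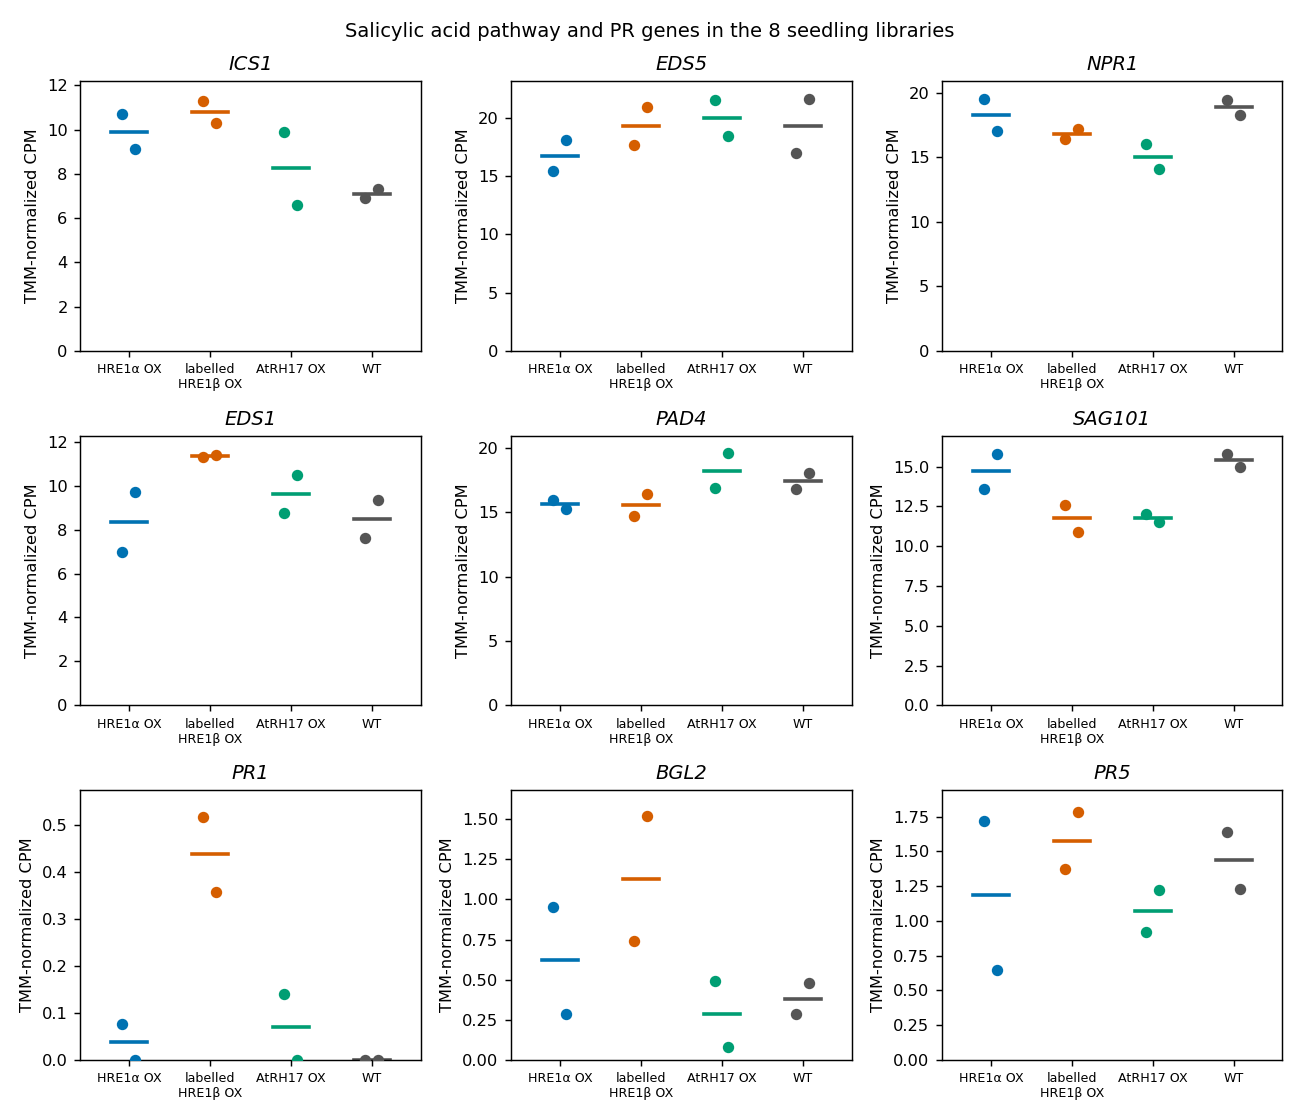
TMM-normalized CPM (vertical axes, each from 0) of the 9 genes in the 2 libraries (points) of each group, with the group mean as a bar. *ICS1* lay between 10.3 and 11.3 CPM in the libraries labelled as *HRE1β* OX, above 6.9 and 7.32 CPM in WT, and *PR1* had 0 CPM in both WT libraries.

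*ICS1* (AT1G74710, chr1:28070295-28074177, plus strand of TAIR10.1, protein-coding), the isochorismate synthase that carries most pathogen-induced SA synthesis, was the gene that rose. It had 10.7 and 9.12 CPM in *HRE1α* OX, 11.3 and 10.3 CPM in the libraries labelled as *HRE1β* OX, 9.9 and 6.59 CPM in *AtRH17* OX and 6.9 and 7.32 CPM in WT, from 162 to 317 counts per library. Both *HRE1α* OX libraries and both libraries labelled *HRE1β* OX lay above both WT libraries, while the *AtRH17* OX libraries lay on either side of them. The order of the means was 10.8 ± 0.733, 9.91 ± 1.11, 8.25 ± 2.34 and 7.11 ± 0.296 CPM (SD, n = 2 each) for the libraries labelled as *HRE1β* OX, *HRE1α* OX, *AtRH17* OX and WT, and only the first and the last of these differed past the threshold. The log2 fold change against WT was 0.60 ± 0.187 (SE) in the libraries labelled as *HRE1β* OX, with a 95% interval of 0.22 to 0.98 and an adjusted p = 0.0179 by edgeR. The call was lost without WT replicate 1 (adjusted p = 0.0645, edgeR) or without replicate 1 of the libraries labelled as *HRE1β* OX (adjusted p = 0.134), and the adjusted p ran from 0.00725 to 0.204 over all alternatives. In *HRE1α* OX the log2 fold change was 0.48 ± 0.188 (SE, adjusted p = 0.203, edgeR), and the difference between the libraries labelled as *HRE1β* OX and *HRE1α* OX was 0.12, with an interval of -0.25 to 0.50.

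*EDS5* (AT4G39030, chr4:18185437-18189224, plus strand), the MATE transporter that moves isochorismate out of the chloroplast, did not follow *ICS1*. It had 15.4 and 18.1 CPM in *HRE1α* OX, 17.7 and 20.9 CPM in the libraries labelled as *HRE1β* OX, 21.5 and 18.4 CPM in *AtRH17* OX and 17.0 and 21.6 CPM in WT. All 3 overexpressors overlapped WT, and the log2 fold changes were -0.20, 0.00 and 0.05, with intervals of -0.49 to 0.09, -0.29 to 0.29 and -0.24 to 0.34. Its end overlaps AT4G39040 on the opposite strand by 213 bases, and that gene had 1075 to 1655 counts, so the counts of *EDS5* are uncertain as long as the use of strand is not given.

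*NPR1* (AT1G64280, chr1:23852748-23855658, minus strand) had 19.5 and 17.0 CPM in *HRE1α* OX, 16.4 and 17.2 CPM in the libraries labelled as *HRE1β* OX, 16.0 and 14.1 CPM in *AtRH17* OX and 19.4 and 18.3 CPM in WT. The *AtRH17* OX libraries and the libraries labelled as *HRE1β* OX lay below both WT libraries, and *HRE1α* OX overlapped WT. The log2 fold change in *AtRH17* OX was -0.32 ± 0.134 (SE, 95% interval -0.60 to -0.05), which missed the threshold (adjusted p = 0.0657, edgeR). It was -0.17 in the libraries labelled as *HRE1β* OX and -0.05 in *HRE1α* OX.

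The 3 genes of the EDS1 node did not move together. *EDS1* (AT3G48090, chr3:17755329-17758147, minus strand) had 6.99 and 9.7 CPM in *HRE1α* OX, 11.3 and 11.4 CPM in the libraries labelled as *HRE1β* OX, 8.77 and 10.5 CPM in *AtRH17* OX and 7.61 and 9.37 CPM in WT. The libraries labelled as *HRE1β* OX were the highest 2 of the 8, and the other groups overlapped. Their log2 fold change was 0.42 ± 0.18 (SE, 95% interval 0.05 to 0.79) against WT and 0.45 ± 0.181 against *HRE1α* OX, with adjusted p = 0.0919 and 0.0937 by edgeR. The neighbouring locus AT3G48080, of the same list, had 37 to 74 counts per library, and because multiple alignments were counted, reads may be shared between the pair.

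*PAD4* (AT3G52430, chr3:19431095-19434450, plus strand), the partner of EDS1 that promotes SA synthesis, had 16.0 and 15.3 CPM in *HRE1α* OX, 14.7 and 16.4 CPM in the libraries labelled as *HRE1β* OX, 16.9 and 19.6 CPM in *AtRH17* OX and 16.8 and 18.1 CPM in WT. Its log2 fold changes were -0.16, -0.17 and 0.06 in these overexpressors, with intervals of -0.43 to 0.12, -0.44 to 0.11 and -0.21 to 0.34, and the groups lay close together.

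*SAG101* (AT5G14930, chr5:4828499-4830982, plus strand), the partner of EDS1 known from leaf senescence and cell death signalling, was the gene that fell. It had 13.6 and 15.8 CPM in *HRE1α* OX, 12.6 and 10.9 CPM in the libraries labelled as *HRE1β* OX, 12.0 and 11.5 CPM in *AtRH17* OX and 15.8 and 15.0 CPM in WT. The *AtRH17* OX libraries and the libraries labelled as *HRE1β* OX lay below both WT libraries. The log2 fold change against WT was -0.39 in each, with an adjusted p = 0.0425 in *AtRH17* OX and 0.0538 in the libraries labelled as *HRE1β* OX by edgeR, and the difference between them was 0.00 (95% interval -0.31 to 0.30). The call in *AtRH17* OX was lost without any 1 of the 4 libraries (adjusted p from 0.0629 to 0.192, edgeR), with DESeq2, with upper-quartile factors and in a fit of the 2 groups alone. The 4 senescent leaf markers summed to 48.0 and 48.0 CPM in *HRE1α* OX, 44.1 and 37.9 CPM in the libraries labelled as *HRE1β* OX, 30.0 and 27.9 CPM in *AtRH17* OX and 60.5 and 61.5 CPM in WT, and *ORE1* made up most of each sum. *ORE1*, a NAC factor of leaf senescence, was lower in all 3 overexpressors (log2 fold changes -0.34, -0.62 and -1.17, adjusted p = 0.0455, 1.58e-05 and 2.01e-10, edgeR), the first call being lost without any 1 of the 4 libraries (adjusted p from 0.0675 to 0.307). *SAG13* of the same list went the other way, with 0 and 0 counts in *HRE1α* OX, 7 and 17 counts in the libraries labelled as *HRE1β* OX, 21 and 15 counts in *AtRH17* OX and 0 and 1 counts in WT. It was called higher in the libraries labelled as *HRE1β* OX (adjusted p = 0.0204, edgeR) and in *AtRH17* OX (adjusted p = 0.00333), the first call being lost without either WT library (0.135 and 0.0517) or replicate 2 of the libraries labelled as *HRE1β* OX (0.189). *SAG29* was not called against WT, and *SAG12* was at 0 counts in every library. The part of these markers in the level of *SAG101* was not tested.

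**Figure D2:**
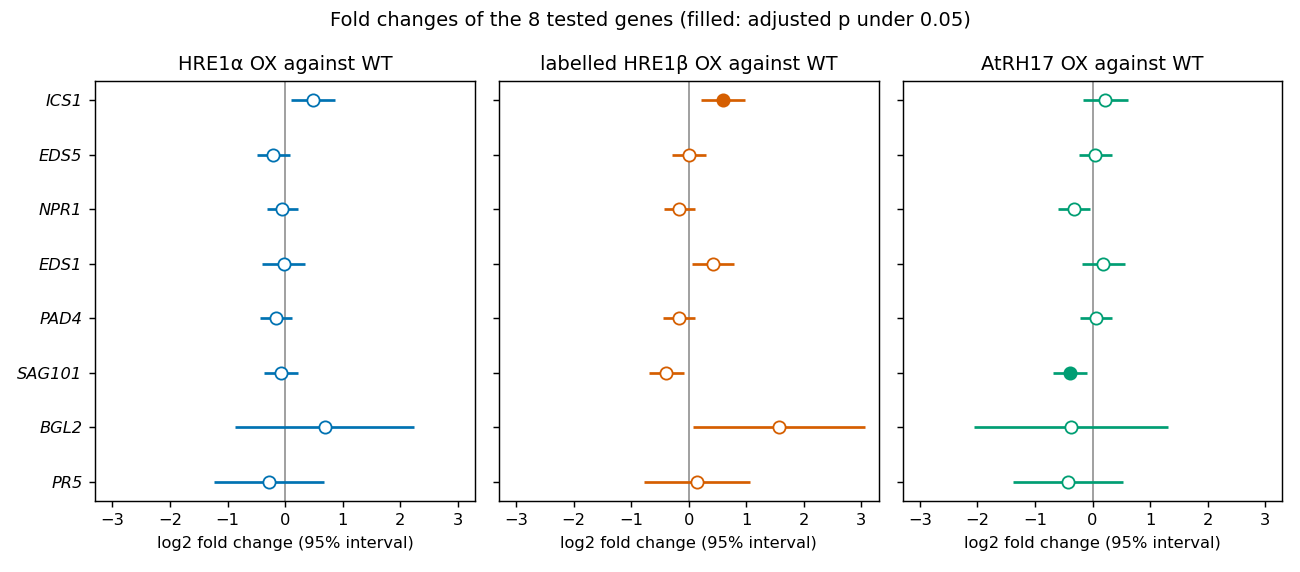
Log2 fold change against WT (horizontal axis, points) with its 95% interval (lines) for the 8 tested genes in *HRE1α* OX, the libraries labelled as *HRE1β* OX and *AtRH17* OX. Filled points passed an adjusted p under 0.05, which were *ICS1* at 0.60 in the libraries labelled as *HRE1β* OX and *SAG101* at -0.39 in *AtRH17* OX, and the widest intervals belong to *BGL2* and *PR5*.

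The PR genes, the output of the pathway, had few counts, and *PR1* was near the limit of detection. *PR1* (AT2G14610, chr2:6241640-6242541, minus strand), which encodes a small secreted defence protein, had 2 and 0 counts in *HRE1α* OX, 14 and 11 counts in the libraries labelled as *HRE1β* OX, 4 and 0 counts in *AtRH17* OX and 0 and 0 counts in WT. The libraries labelled as *HRE1β* OX stood above the other 6, with a mean of 0.437 ± 0.114 CPM (SD, n = 2), at least 4.18-fold higher than 3 counts per library in WT would give. The gene stayed below the filter and has no call. Without the filter it passed the threshold in the libraries labelled as *HRE1β* OX (adjusted p = 0.0314, edgeR), and in a fit of these and WT alone (adjusted p = 0.0101), and not in any of the fits without 1 of these 4 libraries (adjusted p from 0.0508 to 0.104). The seed transcripts described above were in the same 2 libraries, at 99.8 and 28.8 CPM against 0.444 to 0.995 CPM elsewhere, and their part in the *PR1* counts was not tested. In the other groups a difference in *PR1* was not detectable at this depth.

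*BGL2* (AT3G57260, chr3:21188397-21189967, minus strand), a β-1,3-glucanase that attacks fungal walls, had 25 and 8 counts in *HRE1α* OX, 20 and 47 counts in the libraries labelled as *HRE1β* OX, 14 and 2 counts in *AtRH17* OX and 8 and 14 counts in WT. In CPM the libraries labelled as *HRE1β* OX, at 0.739 and 1.52, lay above WT at 0.284 and 0.479, and the other groups overlapped WT. The log2 fold change was 1.56 ± 0.73 (SE), with an interval of 0.07 to 3.05, and it missed the threshold (adjusted p = 0.128, edgeR). Set against each other, *AtRH17* OX was lower than the libraries labelled as *HRE1β* OX by a log2 fold change of -1.93 ± 0.759 (SE), also short of the threshold (adjusted p = 0.0899, edgeR).

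*PR5* (AT1G75040, chr1:28177670-28179022, plus strand), a thaumatin-like protein, had 45 and 18 counts in *HRE1α* OX, 37 and 55 counts in the libraries labelled as *HRE1β* OX, 26 and 30 counts in *AtRH17* OX and 46 and 36 counts in WT. The log2 fold changes were -0.28, 0.14 and -0.43, with wide intervals of -1.23 to 0.67, -0.78 to 1.06 and -1.38 to 0.53. *HRE1α* OX and the libraries labelled as *HRE1β* OX overlapped WT, and both *AtRH17* OX libraries lay just below it.

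Between the overexpressors 0 of the 8 genes passed the threshold in each comparison, by edgeR and by DESeq2. This was beside 16.7% of all tested genes for the libraries labelled as *HRE1β* OX against *HRE1α* OX, 25.8% for *AtRH17* OX against *HRE1α* OX and 13.9% for *AtRH17* OX against the libraries labelled as *HRE1β* OX. With an unadjusted p under 0.05, 2 genes were counted in each of the 3 comparisons by edgeR. The share of all tested genes at that unadjusted threshold was not computed, so these counts are not read as a result.

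Other genes of the pathway were taken from 7 lists written from general knowledge. Earlier results of these data were known when the lists were chosen, so their shares are a description. Of their 71 genes outside the 9, 65 were tested. In *HRE1α* OX 2 were higher and 4 lower (9.23% of those tested), in the libraries labelled as *HRE1β* OX 18 were higher and 7 lower (38.5%), and in *AtRH17* OX 17 were higher and 9 lower (40.0%), where 3.36%, 22.9% and 30.8% of all genes passed. The median log2 fold changes of these 65 genes were -0.06, 0.09 and 0.00, where those of all tested genes were -0.01, 0.00 and -0.01. The comparisons share the WT libraries.

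In the synthesis list of 12 genes, most calls were of phenylalanine ammonia-lyases, in the libraries labelled as *HRE1β* OX and in *AtRH17* OX. *PAL1*, a phenylalanine ammonia-lyase, had 84.5 and 85.2 CPM in the libraries labelled as *HRE1β* OX, 92.2 and 83.2 CPM in *AtRH17* OX and 52.0 and 42.2 CPM in WT (log2 fold changes 0.85 and 0.90, adjusted p = 9.48e-08 and 2.3e-08, edgeR). *PAL4* rose in the same groups by log2 fold changes of 1.1 and 1.40, and *PAL2* by 0.37 in *AtRH17* OX. *PAL3* was not called and lay lower in both groups (log2 fold changes -0.34 and -0.33, adjusted p = 0.101 and 0.093, edgeR). *HRE1α* OX, at 47.7 and 44.2 CPM of *PAL1*, lay in the range of WT. Of the enzymes after ICS1, *PBS3* was called in *AtRH17* OX (40 and 51 counts, against 2 and 21 counts in WT, log2 fold change 2.12, adjusted p = 0.0153, edgeR), a call lost without WT replicate 1 (adjusted p = 0.15) or *AtRH17* OX replicate 2 (0.141). *CBP60g* and *SARD1*, the transcription factors that switch on *ICS1*, were not called in any of the 3 comparisons with WT. The list held 0 calls in *HRE1α* OX, 3 higher in the libraries labelled as *HRE1β* OX and 4 higher in *AtRH17* OX, with medians of -0.06, 0.10 and 0.19. The shares of all tested genes called higher were 1.57%, 11.2% and 15.3%.

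Genes that inactivate or modify SA were called in each overexpressor, most of them as higher in *AtRH17* OX. *DMR6*, an SA hydroxylase that limits immunity, had 11.7 and 11.6 CPM in *HRE1α* OX, 19.1 and 17.2 CPM in the libraries labelled as *HRE1β* OX, 17.7 and 17.8 CPM in *AtRH17* OX and 7.89 and 8.31 CPM in WT. It was the gene of this list that was higher in all 3 overexpressors (log2 fold changes 0.53, 1.16 and 1.13, adjusted p = 0.0404, 3.05e-07 and 3.25e-07, edgeR), although the call in *HRE1α* OX was lost without WT replicate 1 (adjusted p = 0.147) or either *HRE1α* OX library (0.23 and 0.203). *UGT76B1*, a glucosyltransferase of SA and N-hydroxypipecolic acid, had 36.5 and 32.5 CPM in the libraries labelled as *HRE1β* OX, 28.7 and 30.6 CPM in *AtRH17* OX and 13.3 and 6.32 CPM in WT (log2 fold changes 1.82 and 1.60). *DLO1*, the close relative of *DMR6*, rose in *AtRH17* OX by a log2 fold change of 2.44 (53 and 25 counts, against 11 and 4 counts in WT), and *MES9*, a methyl esterase, by 1.09. *MES2*, another methyl esterase, fell in all 3, by 0.45, 0.83 and 0.35 on the log2 scale, and *UGT74F2*, an SA glucosyltransferase, fell by 0.44 on that scale in *HRE1α* OX. The last 2 calls in *HRE1α* OX were lost without either of its libraries (adjusted p of *MES2* 0.0944 and 0.0746, of *UGT74F2* 0.213 and 0.123), that of *MES2* in *AtRH17* OX without its replicate 1 (0.102), and that of *DLO1* without WT replicate 2 (0.119) or *AtRH17* OX replicate 1 (0.192). Of 9 genes tested, 1 was higher and 2 lower in *HRE1α* OX, 2 higher and 1 lower in the libraries labelled as *HRE1β* OX, and 4 higher and 1 lower in *AtRH17* OX, with medians of -0.22, 0.08 and 0.08. Among all tested genes, 1.57%, 11.2% and 15.3% were called higher and 1.8%, 11.6% and 15.5% lower.

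**Figure D3:**
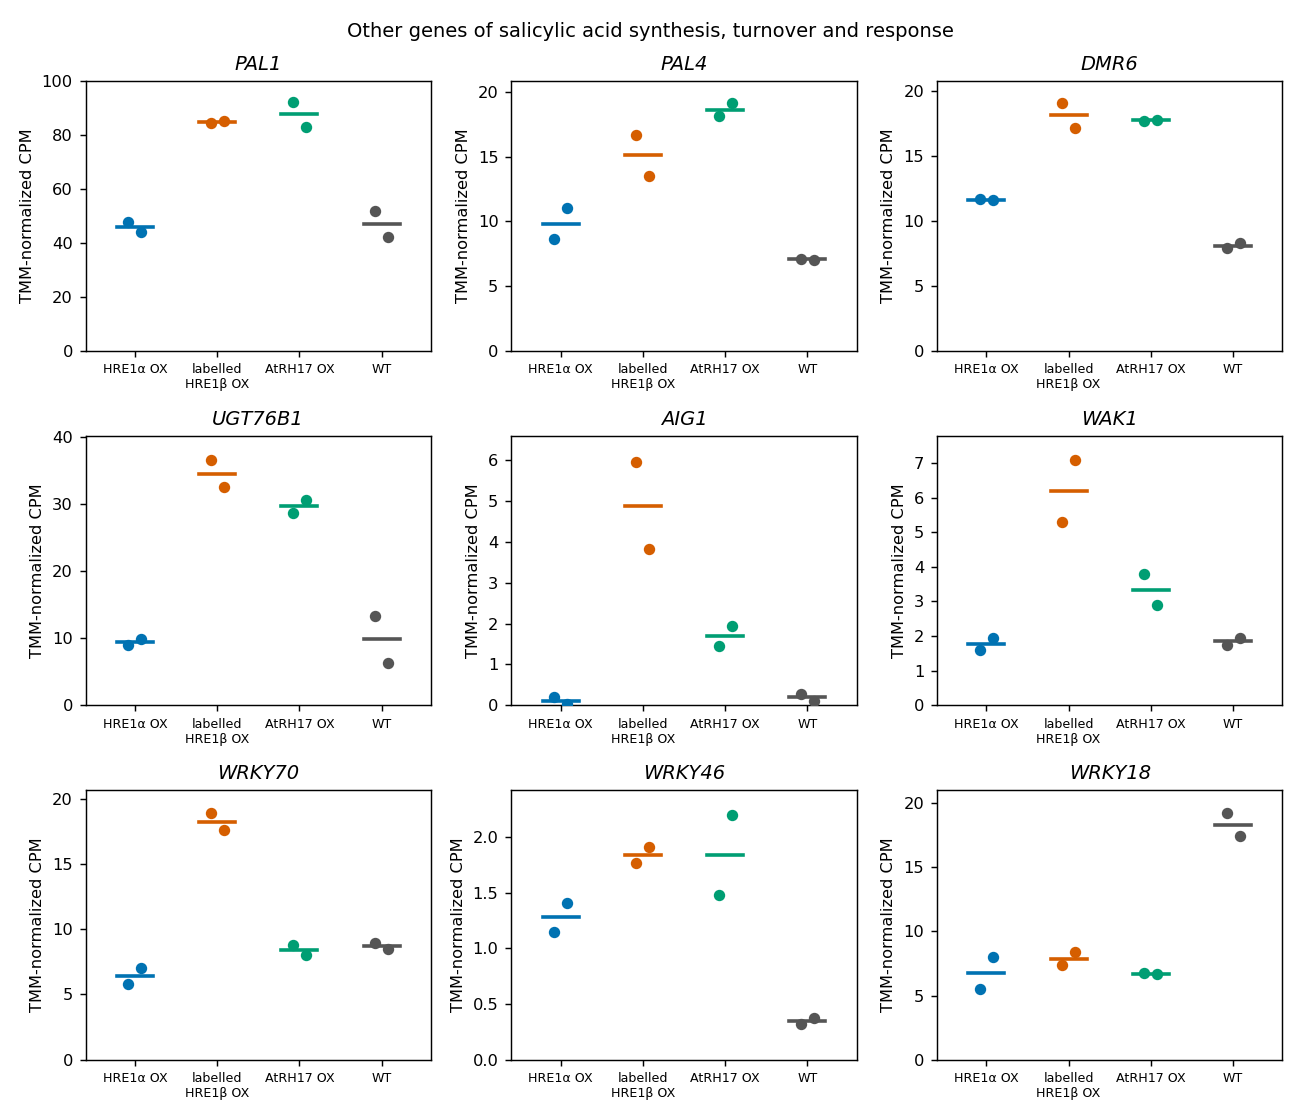
TMM-normalized CPM (vertical axes, each from 0) of 9 other genes of SA synthesis, turnover and response in the 2 libraries (points) of each group, with the group mean as a bar. *DMR6* lay at 17.2 to 19.1 CPM in the libraries labelled as *HRE1β* OX and in *AtRH17* OX, above 7.89 and 8.31 CPM in WT, and *WRKY18* lay lower in the 6 overexpressor libraries than in WT.

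Among 21 tested receptors and transcription factors, *WRKY18* and *WRKY46* were called in all 3 overexpressors, in opposite directions. *WRKY18*, a repressor and activator of defence genes known to act with WRKY40 and WRKY60, had 5.54 and 7.97 CPM in *HRE1α* OX, 7.39 and 8.36 CPM in the libraries labelled as *HRE1β* OX, 6.73 and 6.67 CPM in *AtRH17* OX and 19.2 and 17.4 CPM in WT. Its log2 fold changes were -1.43, -1.21 and -1.45. *WRKY46*, an SA-inducible factor, had 30 and 39, 48 and 59, and 42 and 54 counts in the 3 overexpressors in the same order, and 9 and 11 counts in WT (log2 fold changes 1.86, 2.39 and 2.38). The study also reported, by quantitative RT-PCR, that *WRKY46* was higher in its *HRE1α* OX and *HRE1β* OX plants than in WT. The call of *WRKY46* in *HRE1α* OX (adjusted p = 0.0293, edgeR) was lost when any 1 of the 4 libraries was left out (adjusted p from 0.0529 to 0.228). *WRKY70*, which balances SA against jasmonate responses, had 18.9 and 17.6 CPM in the libraries labelled as *HRE1β* OX and 8.96 and 8.48 CPM in WT (log2 fold change 1.06, adjusted p = 7.15e-06, edgeR), and 8.77 and 8.02 CPM in *AtRH17* OX, where it was not called. The test between these overexpressors gave a log2 fold change of -1.12 for *AtRH17* OX (adjusted p = 1.36e-05, edgeR). *WRKY51* rose by log2 fold changes of 1.95 and 1.65 in the libraries labelled as *HRE1β* OX and in *AtRH17* OX, *NIMIN2*, an NPR1-interacting protein, by 0.98 in the libraries labelled as *HRE1β* OX, and *TGA1*, a bZIP factor, by 0.33 in the libraries labelled as *HRE1β* OX and 0.45 in *AtRH17* OX. The calls of *WRKY51* were lost without replicate 1 of the libraries labelled as *HRE1β* OX (adjusted p = 0.0816) and without *AtRH17* OX replicate 2 (0.103), and that of *NIMIN2* without either WT library (0.0527 and 0.129) or replicate 1 of the libraries labelled as *HRE1β* OX (0.318), and that of *TGA1* in the libraries labelled as *HRE1β* OX without that replicate (0.128). The list held 1 higher and 1 lower in *HRE1α* OX, 7 higher and 1 lower in the libraries labelled as *HRE1β* OX, and 3 higher and 1 lower in *AtRH17* OX, with medians of -0.05, -0.03 and -0.05. Among all tested genes, 1.57%, 11.2% and 15.3% were called higher and 1.8%, 11.6% and 15.5% lower.

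Of the helper receptors that work with the EDS1 node, *ADR1-L2* was lower in all 3 overexpressors. This helper NLR, paired with EDS1 and PAD4, had 22.1 and 22.0 CPM in *HRE1α* OX, 23.1 and 22.4 CPM in the libraries labelled as *HRE1β* OX, 17.3 and 19.5 CPM in *AtRH17* OX and 29.8 and 30.9 CPM in WT, with all 6 overexpressor libraries below WT. Its log2 fold changes were -0.46, -0.42 and -0.72 (adjusted p = 0.0185, 0.00837 and 1.6e-05, edgeR), and the first of these calls was lost without either *HRE1α* OX library (adjusted p = 0.183 in both fits), the second without replicate 2 of the libraries labelled as *HRE1β* OX (0.0929). *ADR1-L1* fell by 0.48 on the log2 scale in *AtRH17* OX. *ADR1*, AT5G66900 and AT5G66910, also in this list, were not called in any comparison with WT. With *EDS1*, *PAD4* and *SAG101* counted, 0 of 10 genes were higher in each overexpressor, and 1, 1 and 3 were lower, with medians of -0.11, -0.17 and -0.01. Among all tested genes, 1.57%, 11.2% and 15.3% were called higher and 1.8%, 11.6% and 15.5% lower.

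The N-hydroxypipecolic acid pathway, which amplifies SA signalling in systemic acquired resistance, has 3 genes. *ALD1*, its first enzyme, had 0 and 0 counts in *HRE1α* OX, 5 and 21 counts in the libraries labelled as *HRE1β* OX, 12 and 7 counts in *AtRH17* OX and 0 and 0 counts in WT. Its mean was at least 4.14-fold higher in the libraries labelled as *HRE1β* OX and at least 3.38-fold higher in *AtRH17* OX than 3 counts per library in WT would give (adjusted p = 0.00969 and 0.0127, edgeR). The libraries labelled as *HRE1β* OX lay apart, at 0.185 and 0.681 CPM, against a floor of 0.105 CPM. Both calls were lost without either WT library (adjusted p from 0.0599 to 0.0786), the first also without replicate 2 of the libraries labelled as *HRE1β* OX (0.184) and the second without *AtRH17* OX replicate 1 (0.0783). The locus AT5G52810 had 8.8 and 10.1 CPM in the libraries labelled as *HRE1β* OX, 8.14 and 7.9 CPM in *AtRH17* OX and 3.77 and 3.97 CPM in WT (log2 fold changes 1.29 and 1.05). *FMO1*, the hydroxylase that completes the pathway, had 26 and 19 counts in *AtRH17* OX, against 3 and 0 counts in WT (adjusted p = 0.00511, edgeR), and 5 and 2 counts in the libraries labelled as *HRE1β* OX. That call was lost without WT replicate 2 (adjusted p = 0.0805). *FMO1* also differed between *AtRH17* OX and the libraries labelled as *HRE1β* OX (log2 fold change 2.75, adjusted p = 0.0465, edgeR). The dependence of this last call on single libraries is not given.

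Of the SA-responsive genes beside the PR genes, 5 of 6 tested rose in the libraries labelled as *HRE1β* OX and 3 of 6 in *AtRH17* OX. The shares of all tested genes called higher there were 11.2% and 15.3%. *PCC1* and *LURP1* passed the filter on low counts through the libraries labelled as *HRE1β* OX, with 0 to 3 and 0 to 8 counts in each other library. Shares of this list that involve the libraries labelled as *HRE1β* OX are thus partly set by the filter and are a description. *AIG1*, a GTP-binding protein induced by avirulent bacteria, had 5 and 1 counts in *HRE1α* OX, 161 and 118 counts in the libraries labelled as *HRE1β* OX, 41 and 48 counts in *AtRH17* OX and 8 and 3 counts in WT. Its log2 fold changes were 4.63 and 3.11 in the libraries labelled as *HRE1β* OX and in *AtRH17* OX (adjusted p = 4.96e-08 and 4.55e-05, edgeR), and *AtRH17* OX was lower than the libraries labelled as *HRE1β* OX (log2 fold change -1.52, adjusted p = 0.00892, edgeR). *LURP1*, named for its late upregulation after *Hyaloperonospora* infection, had 42 and 34 counts in the libraries labelled as *HRE1β* OX, 0 and 4 counts in *AtRH17* OX and 8 and 6 counts in WT. Its call against WT (log2 fold change 2.42, adjusted p = 0.0217, edgeR) was lost without any 1 of the 4 libraries (adjusted p from 0.0666 to 0.2), and *AtRH17* OX was lower than the libraries labelled as *HRE1β* OX (log2 fold change -4.03, adjusted p = 0.00316, edgeR). *PCC1*, which encodes a small membrane-anchored protein, had 11 and 23 counts in the libraries labelled as *HRE1β* OX and 0 and 0 counts in WT, at least 5.51-fold higher than the floor of 3 counts per library (adjusted p = 0.00387, edgeR, and 0.0677 without replicate 2 of the libraries labelled as *HRE1β* OX). *WAK1*, a wall-associated kinase, rose by log2 fold changes of 1.75 and 0.86, and *ROXY19*, a glutaredoxin that binds TGA factors, by 2.45 and 2.05. The calls of *ROXY19* were lost without WT replicate 1 (adjusted p = 0.0642 and 0.131), replicate 2 of the libraries labelled as *HRE1β* OX (0.0789) or *AtRH17* OX replicate 2 (0.131), and that of *WAK1* in *AtRH17* OX without WT replicate 1 (0.0932) or *AtRH17* OX replicate 1 (0.216). Set against the libraries labelled as *HRE1β* OX, 4 of the 8 tested genes were lower in *AtRH17* OX and 0 higher, beside 13.9% of all genes in either direction. Of 8 tested genes, with *BGL2* and *PR5* among them, 0 were called in *HRE1α* OX, 5 were higher in the libraries labelled as *HRE1β* OX and 3 were higher in *AtRH17* OX. Their medians were 0.32, 2.08 and 0.25, and -0.03, 2.08 and -0.12 with *PCC1* set at its bound, so the sign of the first and the last depends on that 1 gene.

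**Figure D4:**
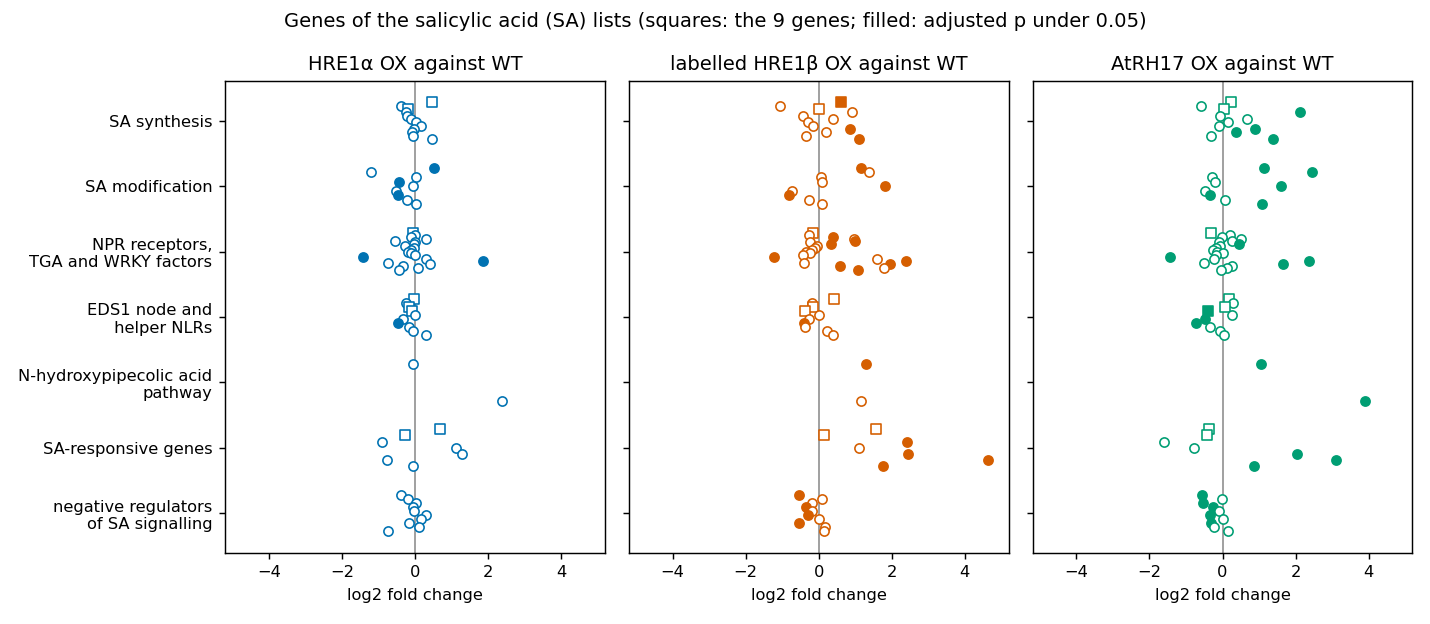
Log2 fold change against WT (horizontal axis) of each tested gene of the 7 SA lists (rows) in *HRE1α* OX, the libraries labelled as *HRE1β* OX and *AtRH17* OX, with squares for the 9 genes, circles for the others and filled symbols for an adjusted p under 0.05. Most calls above 1 lie in the turnover, WRKY, N-hydroxypipecolic acid and SA-responsive rows of the libraries labelled as *HRE1β* OX and of *AtRH17* OX, and *ALD1* and *PCC1*, the 2 genes at 0 counts in WT, are left out.

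In the list of genes known to hold SA signalling down, those called were lower. *DMR6*, which limits immunity and was counted in another list, was higher in the libraries labelled as *HRE1β* OX and in *AtRH17* OX (log2 fold changes 1.16 and 1.13). So was *UGT76B1*, which glucosylates SA (1.82 and 1.60). From the list of receptors and factors, *NPR3* and *NIMIN2* were higher in the libraries labelled as *HRE1β* OX (log2 fold changes 0.39 and 0.98, adjusted p = 0.0379 and 0.0329, edgeR). The direction seen here thus depends on which genes the list holds. *LSD1*, a zinc-finger brake on cell death, had 27.9 and 23.6 CPM in the libraries labelled as *HRE1β* OX, 25.8 and 25.3 CPM in *AtRH17* OX and 35.6 and 39.8 CPM in WT (log2 fold changes -0.55 and -0.56, adjusted p = 0.000424 and 0.000266, edgeR). *MPK4*, a mitogen-activated kinase, fell by 0.55 and 0.31 on the log2 scale, *CPR5*, a nuclear pore protein, by 0.36 and 0.26, and *DND1*, a cation channel, by 0.30 and 0.34, in the same 2 groups. *SRFR1* fell by 0.53 on that scale in *AtRH17* OX. Of the 10 tested genes, 0 were called in *HRE1α* OX, 4 were lower in the libraries labelled as *HRE1β* OX and 5 were lower in *AtRH17* OX, and 0 were higher in any group, with medians of -0.04, -0.19 and -0.24. Among all tested genes, 1.8%, 11.6% and 15.5% were called lower and 1.57%, 11.2% and 15.3% higher. The calls of *DND1* were lost without WT replicate 2 (adjusted p = 0.339 in the libraries labelled as *HRE1β* OX and 0.177 in *AtRH17* OX), without either library labelled *HRE1β* OX (0.213 and 0.0804) and without *AtRH17* OX replicate 2 (0.155). That of *MPK4* in *AtRH17* OX was lost without WT replicate 2 (0.176) or either *AtRH17* OX library (0.0879 and 0.0617), that of *CPR5* in the libraries labelled as *HRE1β* OX without their replicate 2 (0.0709), and that of *CPR5* in *AtRH17* OX without any 1 of the 4 libraries (0.0646 to 0.21).

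Defence genes of the jasmonate and ethylene branch, which SA is known to oppose, were called in both directions. *PDF1.2*, the defensin used as the marker of that branch, had 12 and 22 counts in *HRE1α* OX, 7 and 45 counts in the libraries labelled as *HRE1β* OX, 0 and 1 counts in *AtRH17* OX and 0 and 0 counts in WT. Its mean was at least 5.98-fold higher in *HRE1α* OX and at least 8.21-fold higher in the libraries labelled as *HRE1β* OX than the floor of 3 counts per library in WT. That floor was 0.105 CPM, and the libraries labelled as *HRE1β* OX lay apart, at 0.259 and 1.46 CPM. The first call was lost without WT replicate 1 (adjusted p = 0.0694) or either *HRE1α* OX library (0.0539 and 0.159), and the second without replicate 2 of the libraries labelled as *HRE1β* OX (0.082). Its near copy *PDF1.3*, with which it may share reads, had 28 and 23, 21 and 39, and 10 and 3 counts in the 3 overexpressors in the same order, and 1 and 3 counts in WT (log2 fold changes 3.68, 3.80 and 1.73, the last not called). The first of these calls was lost without WT replicate 1 (adjusted p = 0.103) or either *HRE1α* OX library (0.132 and 0.0662). *HCHIB*, a basic chitinase, fell by 0.49 on the log2 scale in *HRE1α* OX and rose by a log2 fold change of 0.83 in *AtRH17* OX, where *ORA59*, an ERF activator of *PDF1.2*, fell by 0.96 on the log2 scale. The call of *HCHIB* in *HRE1α* OX was lost without WT replicate 1 (adjusted p = 0.269) or either *HRE1α* OX library (0.299 and 0.166) and with the replicate block (0.0576), and that of *ORA59* without *AtRH17* OX replicate 2 (0.22). The 6 tested genes held 2 higher and 1 lower in *HRE1α* OX, 2 higher and 0 lower in the libraries labelled as *HRE1β* OX, and 1 higher and 1 lower in *AtRH17* OX. Among all tested genes, 1.57%, 11.2% and 15.3% were called higher and 1.8%, 11.6% and 15.5% lower.

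By likeness over the 8 libraries, given as Pearson's r of log2(CPM + 1) and as a description, the tested genes closest to *PR1* were *CEL3* (0.997), T22N19.80 (AT5G13430, 0.994), *ZCF125* (0.991), AT5G08670 (0.987) and *AtPARP3* (0.985). *AtPARP3*, a poly(ADP-ribose) polymerase known from seeds, had 20 and 13 counts in the libraries labelled as *HRE1β* OX, 4 and 0 counts in *AtRH17* OX, and 0 counts in both *HRE1α* OX and both WT libraries. The closest to *ICS1* were *CEF* (0.945), T22P22.100 (AT5G11710, 0.944), *LYK2* (0.941), F8K7.18 (AT1G21740, 0.933) and F5O8.34 (AT1G23790, 0.928). The 9 genes themselves were left out of this search.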

How the data were processed

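QuantSeq 3′ mRNA libraries were made from 500 ng of total RNA of whole seedlings. Per the labels and the study's methods, reads were aligned with Bowtie2 to TAIR10 and unique and multiple alignments were counted per gene with Bedtools. The counts deposited by the authors are whole numbers without normalization, 1 table per library, and the use of strand and the tool versions are not given in the sources used here. The authors' own quantile normalization, made with edgeR, is not part of these counts. The study's methods give another seedling age than the labels, which were followed.

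Of 33028 names per table, 32577 were paired with 1 locus of the TAIR10.1 annotation by symbol or synonym, and 451 were not. The filterByExpr rule on low counts kept 22602 genes. TMM factors (0.9581 to 1.034), robust dispersions and glmQLFit came from edgeR 4.0.16 (R 4.3.3), whose quasi-likelihood F test was used with the 4 groups in 1 fit, Benjamini-Hochberg adjustment over all genes and an adjusted p under 0.05 as the threshold. Intervals are 95% intervals of this fit and cover the spread between libraries. SDs are over 2 libraries. A gene at 0 counts in WT was set against a floor of 3 counts per library, which covers counting error only. Folds given as "at least" set the mean of 2 libraries against this floor and allow for no spread between those libraries. The fit was checked on simulated counts.

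The 9 genes and all lists were chosen with earlier results of these data known. Named in the text are the 9 genes, *HRE1*, up to 5 genes per list and comparison with WT with the largest change past the threshold, and the 5 genes closest to *PR1* and to *ICS1*. Genes named beside these (*PAL3*, *CBP60g*, *SARD1*, *ADR1*, AT5G66900 and AT5G66910, as genes not called, and *TGA1* and *NPR3* in the libraries labelled as *HRE1β* OX) were chosen after their values were seen. Alternatives were DESeq2 1.42.0, upper-quartile factors, no filter, a minimum of 10 counts per library, the 2 groups fitted alone, a replicate block, counts without organelle genes, the authors' quantile normalization on log2(CPM + 1) with an equal-variance test at 2-fold and an unadjusted p under 0.05, 2-fold thresholds, and each library left out in turn. The dependence on these alternatives is not given for *NPR3*, nor for genes outside the 9 in comparisons between overexpressors. Motifs were searched in the RefSeq genome, TAIR10.1, whose nuclear sequence is that of TAIR10.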

Additional observations from a re-analysis of the deposited data

How the results depend on the processing

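With 2 libraries per group, small changes were hard to separate from the spread, and *PR1*, *BGL2* and *PR5*, at 0 to 55 counts, could show only large ones. For *AtRH17* OX against WT the count of called genes among the 9 was 1, and it was 0 with DESeq2, upper-quartile factors, the 2 groups alone, quantile-normalized values with the equal-variance test, either 2-fold threshold, and 0 in every fit without 1 library. For the libraries labelled as *HRE1β* OX against WT the count was 1, and it was 2 without the filter and with the 2 groups alone, which then include *PR1*, 0 with quantile-normalized values and with 2-fold and adjusted p, and 0 to 2 without 1 library, where *EDS1* was added without WT replicate 2 (adjusted p = 0.0486, edgeR). The 1 gene past 2-fold with an unadjusted p was *BGL2*, in place of *ICS1*. For these libraries against *HRE1α* OX the count was 0, and 1, *EDS1*, with the 2 groups alone (adjusted p = 0.0465, edgeR). For *AtRH17* OX against the libraries labelled as *HRE1β* OX it was 0, and 1, *BGL2*, at 2-fold and an unadjusted p, and 0 to 1 without 1 library. *ICS1* at 0.60 in the libraries labelled as *HRE1β* OX and *SAG101* at -0.39 in *AtRH17* OX, on the log2 scale, lie below 2-fold. The 2-fold thresholds therefore drop both by definition. The cause of the other differences was not tested.

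Of 24 values of the tested genes against WT, 11 changed sign under at least 1 alternative, none of them called. With upper-quartile factors *EDS1* in *HRE1α* OX was 0.0026 on the log2 scale, and with quantile-normalized values *PR5* in the libraries labelled as *HRE1β* OX was -0.015. Without 1 library, log2 fold changes in *HRE1α* OX ran from -0.28 to 0.19 for *EDS1*, -0.15 to 0.047 for *NPR1*, -0.18 to 0.032 for *SAG101*, -0.40 to 1.31 for *BGL2* and -1.14 to 0.26 for *PR5*. They ran from -0.16 to 0.19 for *EDS5* and -0.053 to 0.36 for *PR5* in the libraries labelled as *HRE1β* OX, and from -0.10 to 0.49 for *ICS1*, -0.12 to 0.23 for *EDS5*, -0.035 to 0.17 for *PAD4* and -2.16 to 0.37 for *BGL2* in *AtRH17* OX. The 2-fold thresholds, and the equal-variance test at 2-fold, drop calls of smaller changes by definition. Losses counted over all alternatives therefore include some that were fixed in advance. *PAL1* in the libraries labelled as *HRE1β* OX, at a log2 fold change of 0.85, was lost in those settings only. Of 90 calls of other named genes and markers, 18 held under every alternative with a value, 72 were lost under at least 1, 38 when 1 library was left out, and 0 changed sign.

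The replicate numbers did not pair the samples, since deviations of same-numbered libraries correlated at -0.00582 to 0.0579. With the replicate block the counts of called genes among the 9 stayed at 0 in *HRE1α* OX, 1 in the libraries labelled as *HRE1β* OX and 1 in *AtRH17* OX against WT, and of the other named calls 1, *HCHIB* in *HRE1α* OX, was lost (adjusted p = 0.0576, edgeR).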
